A study of Homo sapiens with 7 samples.

Results

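Aminoacyl-tRNA synthetases are the enzymes that join each amino acid to its tRNA before translation. The genes described here are the 35 human genes listed as coding for them, 19 with cytosolic and 16 with mitochondrial products, out of 15990 genes tested on the same arrays. They were found by the NCBI gene identifier that opens each probe set's name. Of the 35 genes 34 had probe sets and were tested, 19 cytosolic and 15 mitochondrial. MARS2, the mitochondrial methionyl enzyme, was not analysed here. The 34 genes were read by 6721 probe sets, between 4 and 343 for a gene. Of these, 4441 had a mean over the arrays above 2.95 on the log2 scale, the level that divides all probe sets into a brighter and a dimmer part, and a gene was given the median of those kept probe sets as its value. All 34 genes passed this filter, with 3 to 261 kept probe sets each.

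The arrays hold total RNA of HCT116, an established human colon carcinoma cell line. Cells received 10 µM camptothecin (CPT), which traps topoisomerase I on DNA and blocks transcription and replication, or the solvent DMSO at 0.1%. The CPT early group holds the arrays at 1, 2 and 4 h, the CPT late group those at 15 and 20 h, and the DMSO group those at 4 and 20 h. No time point was repeated, and the labels do not say whether the arrays came from separate cultures. The spread behind every p-value is therefore that among arrays taken at different hours, and it may be technical.

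The cytosolic enzymes charge the tRNAs used by cytosolic ribosomes. EPRS1, IARS1, KARS1, LARS1, MARS1, QARS1 and RARS1 sit together in the multisynthetase complex, held by the scaffold proteins AIMP1, AIMP2 and EEF1E1, and the other cytosolic enzymes work outside it. The mitochondrial enzymes are also encoded in the nucleus, are imported, and charge the tRNAs that the mitochondrial genome encodes. GARS1 and KARS1 make enzymes for both compartments. The kinase EIF2AK4 (GCN2) senses uncharged tRNA, and the transcription factor ATF4, which acts downstream of it, is known to raise many cytosolic synthetase genes through the C/EBP-ATF response element.

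Sequences before the start sites are shown because that element gives the cytosolic genes a feature the members' choice did not use. RefSeq promoter windows of build GRCh38.p14, from 250 bases before to 50 bases after a start site, were held for 30 of the 35 genes. AARS2, LARS1, VARS1, VARS2 and YARS1 had none. The core of the response element, TGATGNAA, was searched on both strands, so that a match on the opposite strand reads TTNCATCA. It was in 1217 of 27305 genes with a window (4.46%) and in 1270 of 35116 windows (3.62%). Of the synthetase genes 8 of 30 held it (26.7%), 7 of 16 cytosolic genes (43.8%) and 1 of 14 mitochondrial genes (7.14%). The 8 were AARS1, CARS1, GARS1, IARS1, MARS1, NARS1, TARS1 and YARS2. A gene with more than 1 window was counted if any of them held a match. TARS1, GARS1 and CARS1 each had a further window with no match. A match says only that these letters stand in the window.

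The 6 of these genes with the largest late difference follow, from 250 bases before the start site to 30 bases after it, in lower case with the match in capitals. TARS1, the threonyl enzyme, lies on chr5:33440715-33440994 on the plus strand, and its match begins 2 bases after the start. YARS2, the mitochondrial tyrosyl enzyme, lies on chr12:32755868-32756147 on the minus strand, with the match 197 bases before the start. GARS1, the glycyl enzyme, lies on chr7:30594628-30594907 on the plus strand, with the match 33 bases before the start. AARS1, the alanyl enzyme, lies on chr16:70289477-70289756 on the minus strand, with the match 187 bases before the start. CARS1, the cysteinyl enzyme, lies on chr11:3057394-3057673 on the minus strand, and its match begins 2 bases before the start and runs across it. MARS1, the methionyl enzyme, lies on chr12:57487818-57488097 on the plus strand, and its match begins 4 bases before the start and runs across it.
TARS1: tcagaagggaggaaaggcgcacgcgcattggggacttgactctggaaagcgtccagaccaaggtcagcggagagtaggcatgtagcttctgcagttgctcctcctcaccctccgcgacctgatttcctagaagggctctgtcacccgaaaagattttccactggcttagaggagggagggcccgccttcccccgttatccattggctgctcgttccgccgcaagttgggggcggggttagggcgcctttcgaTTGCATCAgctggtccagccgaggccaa
YARS2: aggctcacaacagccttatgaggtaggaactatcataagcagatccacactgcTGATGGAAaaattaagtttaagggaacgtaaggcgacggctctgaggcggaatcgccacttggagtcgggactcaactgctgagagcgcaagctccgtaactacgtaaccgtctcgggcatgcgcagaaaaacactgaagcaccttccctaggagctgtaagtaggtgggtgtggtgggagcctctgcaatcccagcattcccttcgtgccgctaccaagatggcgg
GARS1: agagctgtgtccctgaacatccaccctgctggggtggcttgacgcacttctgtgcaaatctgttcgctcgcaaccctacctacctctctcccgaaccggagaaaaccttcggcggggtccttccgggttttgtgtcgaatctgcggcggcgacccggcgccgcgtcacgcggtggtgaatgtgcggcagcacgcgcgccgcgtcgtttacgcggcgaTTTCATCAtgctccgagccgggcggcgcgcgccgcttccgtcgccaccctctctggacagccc
AARS1: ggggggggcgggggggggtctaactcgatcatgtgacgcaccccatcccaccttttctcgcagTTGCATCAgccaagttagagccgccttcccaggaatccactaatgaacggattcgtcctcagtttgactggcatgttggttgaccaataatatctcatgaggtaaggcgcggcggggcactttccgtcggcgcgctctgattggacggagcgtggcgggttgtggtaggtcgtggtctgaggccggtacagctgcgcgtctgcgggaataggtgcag
CARS1: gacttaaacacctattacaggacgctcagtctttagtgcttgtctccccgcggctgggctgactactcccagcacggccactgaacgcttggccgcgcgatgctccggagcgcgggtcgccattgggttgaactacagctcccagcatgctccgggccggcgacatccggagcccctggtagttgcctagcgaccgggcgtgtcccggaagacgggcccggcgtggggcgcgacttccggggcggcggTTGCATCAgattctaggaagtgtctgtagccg
MARS1: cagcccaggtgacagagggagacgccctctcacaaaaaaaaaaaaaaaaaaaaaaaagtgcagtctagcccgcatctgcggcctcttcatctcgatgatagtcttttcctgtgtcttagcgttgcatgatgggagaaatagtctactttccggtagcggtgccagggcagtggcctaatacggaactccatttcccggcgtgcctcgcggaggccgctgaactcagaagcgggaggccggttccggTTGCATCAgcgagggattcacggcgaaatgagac
In TARS1, AARS1, CARS1 and MARS1 the match is the same 8 letters, TTGCATCA. GARS1 has TTTCATCA, and YARS2 has TGATGGAA on the strand of the gene.

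At 15 and 20 h of CPT the cytosolic genes leaned downwards while the array as a whole leaned upwards. Of the 19 cytosolic genes 9 fell, RARS1, TARS1, GARS1, AARS1, SARS1, CARS1, EPRS1, YARS1 and LARS1, and 2 rose, QARS1 and VARS1. Of the 15 mitochondrial genes 4 fell, RARS2, YARS2, NARS2 and IARS2, and 3 rose, PARS2, VARS2 and AARS2. Over all genes tested 18.1% fell and 33.5% rose and 51.5% did either by the same test (limma with Benjamini-Hochberg adjustment over the 15990 genes, adjusted p under 0.05, CPT late against DMSO, n = 2 arrays each). The median difference was -0.33 on the log2 scale over the cytosolic genes, -0.20 over the mitochondrial genes and 0.34 over all genes. The sign of the mitochondrial median is not settled, as it was 0.13 when dimmer probe sets were filtered more strictly. The median of all genes was not the same at every level. By tercile of mean value it was 0.44 in the lowest, 0.42 in the middle and -0.14 in the highest. That highest tercile held 18 of the 19 cytosolic genes. The counts of falls and rises rest on single arrays. Leaving out the 4 h DMSO array left 2 cytosolic and 1 mitochondrial falls, leaving out the 20 h DMSO array left 3 cytosolic falls, and leaving out the 20 h CPT array left 1 cytosolic and 2 mitochondrial falls. Leaving out the 15 h CPT array left 2 mitochondrial falls, and every array left out in turn brought the 2 cytosolic rises to 1 or 0.

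**Figure D1:**
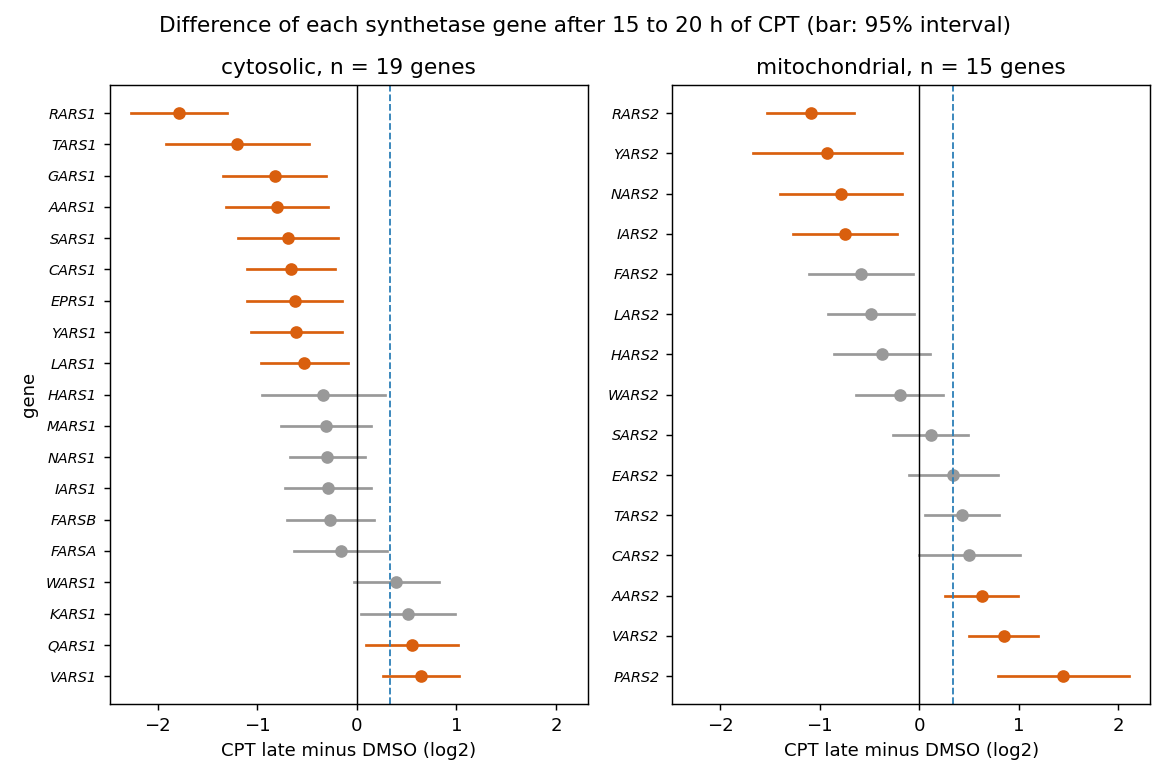
Difference between CPT late (15 and 20 h, n = 2) and DMSO (n = 2) for the 34 synthetase genes, log2, with 95% confidence intervals from limma. Orange points passed the adjusted p of 0.05, grey points did not, and the dashed line is the median of all genes, 0.34. RARS1 lies lowest at -1.78 and PARS2 highest at 1.45.

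On the early arrays no synthetase gene passed the threshold between CPT early (n = 3) and DMSO (n = 2), where 0.025% of all genes rose and 0.0688% fell in limma, 0.0938% together. The members' early differences ran from -0.35 for RARS2 to 0.40 for FARSB, with a median of 0.05 against 0.03 for all genes. Among the cytosolic genes 4 of 19 had an early difference below 0, against 15 of 19 late. Over all 15990 genes 7195 were below 0 early and 5230 late. In the highest tercile by value, which holds 18 of the 19, 2933 of 5330 genes were below 0 late. With this few arrays, a missed threshold does not show that the levels were alike.

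RARS1, the arginyl enzyme of the multisynthetase complex, had the largest fall of the 34 genes. Its log2 value was 7.63 and 7.33 in DMSO at 4 and 20 h, 7.73, 7.80 and 7.81 in CPT at 1, 2 and 4 h, and 5.91 and 5.49 in CPT at 15 and 20 h. The late arrays lay more than 1 log2 unit under every other array. The difference from DMSO was -1.78 ± 0.22 (SE), 3.44-fold lower, with an adjusted p of 0.000218. The promoter window of RARS1 held no match to the element shown above.

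TARS1, whose promoter is printed above, read 7.15 and 6.73 in DMSO, 6.76, 7.18 and 7.10 in CPT at 1, 2 and 4 h, and 6.26 and 5.23 at 15 and 20 h. The late arrays lay under all 5 others, but 1.03 log2 units apart from each other. The fall was -1.20 ± 0.32 (SE), 2.29-fold, with an adjusted p of 0.0134. It was -0.68 with the 20 h CPT array left out (adjusted p = 0.0867) and -0.99 with the 4 h DMSO array left out (adjusted p = 0.102). With no filter on dim probe sets it was -0.66 (adjusted p = 0.0639).

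GARS1, which serves both compartments, read 6.20 and 6.05 in DMSO, 6.19, 6.12 and 6.31 in early CPT, and 5.59 and 5.02 in late CPT. Its late arrays lay under the 5 others, with a fall of -0.82 ± 0.23 (SE) and an adjusted p of 0.0161. AARS1 read 6.28 and 6.47 in DMSO, 6.09, 6.60 and 6.19 in early CPT, and 5.66 and 5.48 in late CPT. It fell by 0.80 (SE 0.23, adjusted p = 0.0169), again with no overlap. With the 20 h CPT array left out the adjusted p of GARS1 was 0.109 and that of AARS1 0.0758. With the 4 h DMSO array left out they were 0.0858 and 0.0503, and AARS1 also missed the threshold without the 20 h DMSO array (0.0646).

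SARS1, the seryl enzyme, read 6.98 and 7.0 in DMSO, 6.83, 7.10 and 6.97 in early CPT, and 6.55 and 6.05 in late CPT. CARS1 read 5.36 and 5.65 in DMSO, 5.11, 5.37 and 5.21 in early CPT, and 4.83 and 4.85 in late CPT. In both genes the late arrays were below all others, by -0.69 ± 0.23 for SARS1 (adjusted p = 0.0280) and by -0.66 ± 0.20 for CARS1 (adjusted p = 0.0201). The early arrays of CARS1 were already between its DMSO and its late values, with a difference of -0.27 that did not pass. Each of the genes passed in 4 of the 7 fits that left out an array. SARS1 missed the threshold without either DMSO array or without the 20 h CPT array (adjusted p up to 0.165), and CARS1 without the 20 h DMSO array or either late CPT array (up to 0.0785). SARS1 read 0.09 above DMSO when dim probe sets were kept, the only call of a member that changed sign under another setting, and missed the threshold with quantile re-normalization (0.0592). CARS1 missed it with no filter (0.0539) and under the stricter filter (0.0734).

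The other cytosolic falls were smaller and lay close to the threshold. EPRS1, which charges both glutamate and proline, gave -0.62 ± 0.21 (adjusted p = 0.0328). YARS1, the tyrosyl enzyme, gave -0.61 ± 0.21 (adjusted p = 0.0324), and LARS1, the leucyl enzyme, -0.53 ± 0.20 (adjusted p = 0.0448). LARS1 passed in none of the 7 fits that left out an array, with an adjusted p up to 0.162 without the 4 h DMSO array. EPRS1 and YARS1 each passed in 3 of those 7, and both missed the threshold without the 2 h or 20 h CPT array or either DMSO array (adjusted p up to 0.156 and 0.135). With no filter on dim probe sets EPRS1 was at -0.27 (adjusted p = 0.284) and YARS1 at -0.63 (0.115). Quantile re-normalization also ended the calls of all 3 genes, and the stricter filter and the probe sets of kinds B, F and T those of EPRS1 and LARS1.

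QARS1, the glutaminyl enzyme, and VARS1, the valyl enzyme, were the cytosolic genes that rose. QARS1 went from 6.16 ± 0.10 (SD, n = 2) in DMSO to 6.72 ± 0.08 (SD, n = 2) in late CPT, a rise of 0.56 with an adjusted p of 0.0445. VARS1 went from 4.48 ± 0.08 to 5.12 ± 0.03, a rise of 0.64 with an adjusted p of 0.0122. The median of all genes was itself 0.34 higher. It was -0.14 in the highest tercile by value, which holds QARS1, and 0.42 in the middle one, which holds VARS1. Once each array was centred on its gene median neither passed (0.33, adjusted p = 0.238 for QARS1, and 0.41, adjusted p = 0.0669 for VARS1). QARS1 also missed the threshold with no filter (0.0672) and passed in none of the 7 fits that left out an array. VARS1 passed in 5 of them, and not with the 15 h CPT array left out (adjusted p = 0.0560) or the 4 h DMSO array (0.0574).

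The remaining 8 cytosolic genes did not pass. KARS1, the lysyl enzyme, stood 0.51 above DMSO (adjusted p = 0.0641), and WARS1, the tryptophanyl enzyme, 0.40 above (adjusted p = 0.105). HARS1, MARS1, NARS1, IARS1 and FARSB, the histidyl, methionyl, asparaginyl and isoleucyl enzymes and the beta subunit of the phenylalanyl enzyme, gave differences from -0.33 to -0.26. FARSA, the alpha subunit of that enzyme, was the cytosolic gene nearest 0, at -0.16 (interval -0.63 to 0.31). It read 6.39 and 6.26 in DMSO, 6.61, 6.47 and 6.70 in early CPT, and 6.32 and 6.0 in late CPT, so that its late and DMSO arrays overlapped.

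**Figure D2:**
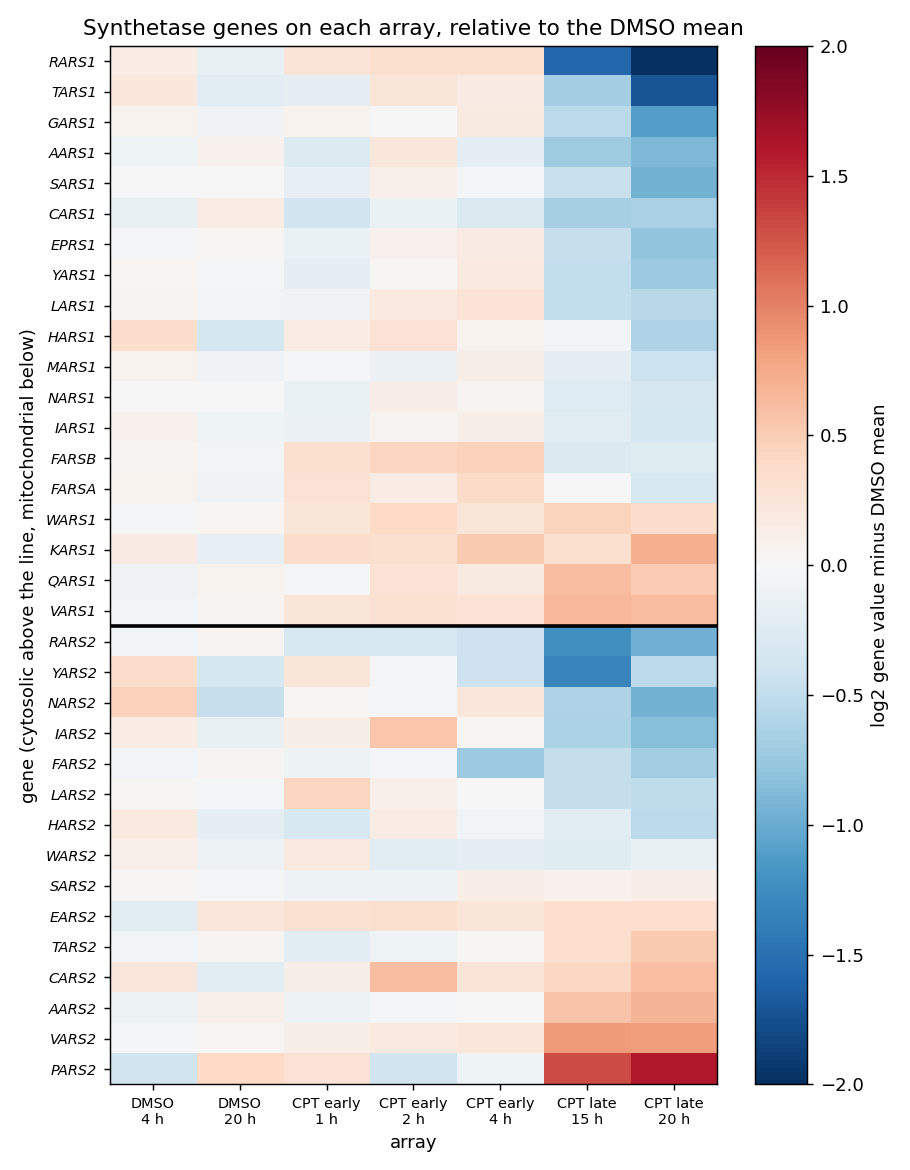
Each of the 34 synthetase genes on each of the 7 arrays, as the log2 difference from the mean of the DMSO arrays, with cytosolic genes above and mitochondrial genes below. Most cytosolic rows turn lower in the columns at 15 and 20 h, RARS1 most, and the mitochondrial rows hold the highest difference, PARS2.

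Falls occurred inside and outside the multisynthetase complex. Of its 7 enzymes 3 fell (42.9%) and 1 rose (14.3%) late, with a median of -0.31. Of the 12 cytosolic enzymes outside it 6 fell (50%) and 1 rose (8.33%), with a median of -0.47. Of all genes 18.1% fell and 33.5% rose. In the highest tercile by value, which holds every enzyme of the complex, 34.8% of all genes fell and 19.5% rose, shares near those of the complex. The enzymes inside and outside the complex were not tested against each other. Of the scaffold proteins only AIMP1 was analysed here. It read 6.39 and 5.99 in DMSO, 6.33, 5.97 and 6.20 in early CPT and 5.39 and 4.76 in late CPT, and fell by 1.12 (SE 0.26, adjusted p = 0.00744).

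The mitochondrial genes divided in both directions. PARS2, the mitochondrial prolyl enzyme, had the largest rise of the 34 genes but rests on 3 kept probe sets of 4. It read 4.16 and 4.95 in DMSO, 4.85, 4.16 and 4.47 in early CPT, and 5.86 and 6.15 in late CPT. The late arrays lay above all others, by 1.45 ± 0.30 (SE), 2.73-fold, with an adjusted p of 0.00385. The DMSO arrays of PARS2 themselves lay 0.79 apart.

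RARS2, the mitochondrial arginyl enzyme, read 5.86 and 5.96 in DMSO, 5.58, 5.58 and 5.50 in early CPT, and 4.68 and 4.95 in late CPT. The 3 groups stood in steps without overlap, although the early step of -0.35 did not pass. The late fall was -1.09 ± 0.20 (SE), 2.13-fold, with an adjusted p of 0.00198. The cytosolic and the mitochondrial arginyl enzymes were thus the genes with the largest falls in their compartments.

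VARS2, the mitochondrial valyl enzyme, read 3.93 and 3.99 in DMSO, 4.09, 4.15 and 4.19 in early CPT, and 4.82 and 4.80 in late CPT. It had the tightest late arrays among the genes that passed, and rose by 0.85 ± 0.16 (SE) with an adjusted p of 0.00225. The cytosolic valyl gene VARS1 also rose. AARS2, the mitochondrial alanyl enzyme, rose by 0.63 ± 0.17 (adjusted p = 0.0122) while the cytosolic AARS1 fell, and its adjusted p was 0.0689 with the 20 h CPT array left out and 0.0651 with the 4 h DMSO array left out. It did not pass with centred arrays (0.40, adjusted p = 0.0645) or from probe sets of kinds B, F and T only (0.49, adjusted p = 0.0513).

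**Figure D3:**
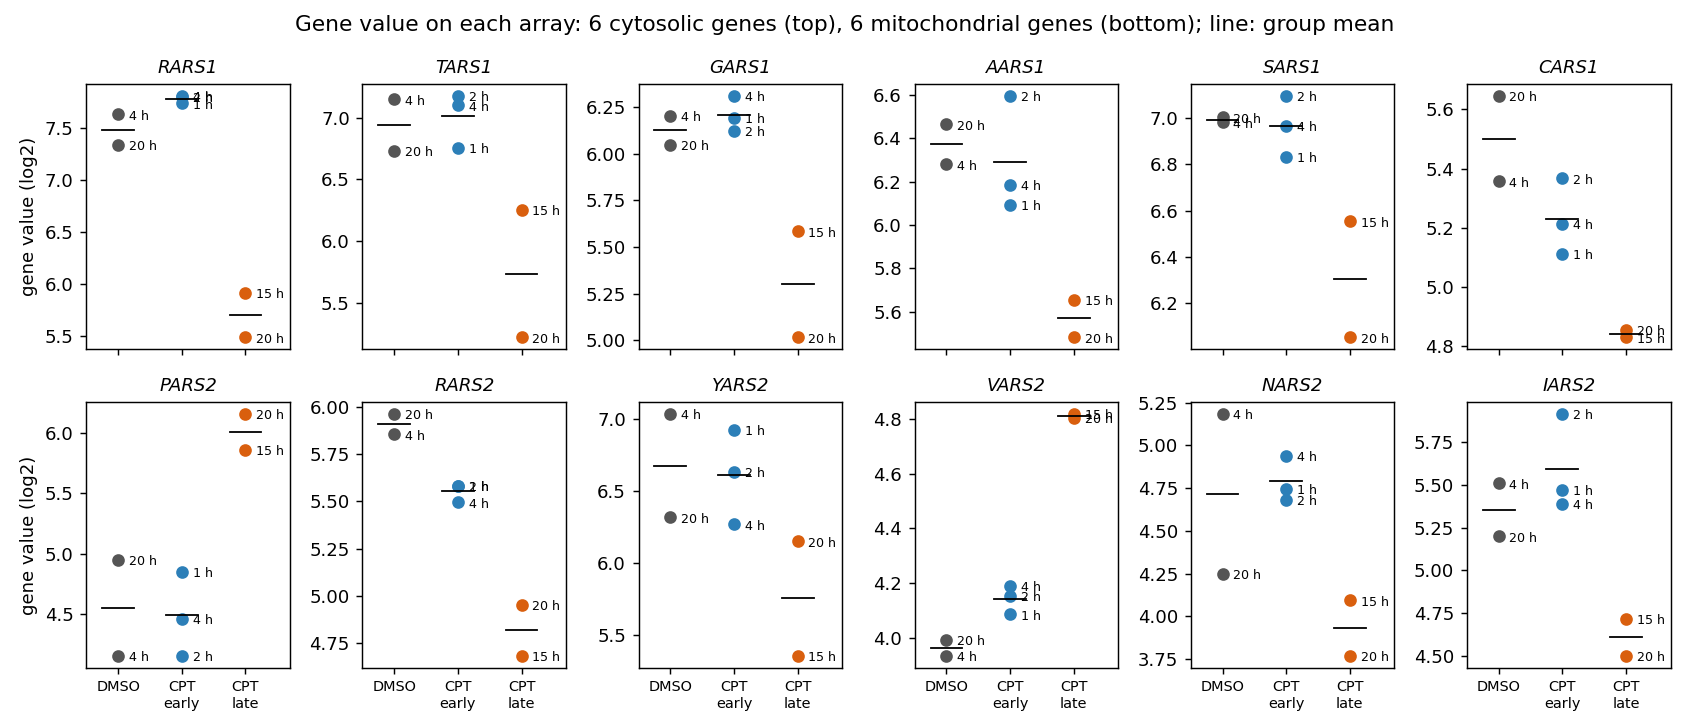
Log2 values of the genes with the largest late differences on each array, 6 cytosolic above and 6 mitochondrial below, with 1 point per array labelled by its hours, grouped as DMSO, CPT early and CPT late, and a line at each group mean. The vertical axes differ between genes. The late CPT points of RARS1 at 5.91 and 5.49 lie under all its other points, those of VARS2 at 4.82 and 4.80 above.

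YARS2 read 7.04 and 6.32 in DMSO, 6.93, 6.64 and 6.27 in early CPT, and 5.36 and 6.15 in late CPT. Its late arrays were the lowest, but the 20 h array lay only 0.17 under the 20 h DMSO array. The fall of -0.92 ± 0.34 (adjusted p = 0.0413) was -0.52 with the 15 h CPT array left out (adjusted p = 0.259) and -0.56 with the 4 h DMSO array left out (adjusted p = 0.280), and it also missed the threshold with the 2 h CPT array left out (0.0528), with no filter on dim probe sets (-0.64, 0.0822) and with quantile re-normalization (0.0728). NARS2, the asparaginyl enzyme, read 5.18 and 4.25 in DMSO, 4.75, 4.68 and 4.94 in early CPT, and 4.09 and 3.77 in late CPT. Its DMSO arrays lay 0.93 apart, and the fall of -0.78 ± 0.28 (adjusted p = 0.0365) was -0.32 with the 4 h DMSO array left out (adjusted p = 0.279), and it missed the threshold without either late CPT array (0.0605 and 0.173).

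IARS2, the isoleucyl enzyme, read 5.51 and 5.20 in DMSO, 5.47, 5.91 and 5.39 in early CPT, and 4.72 and 4.50 in late CPT. The late arrays lay under all others, by -0.75 ± 0.23 with an adjusted p of 0.0237. That p was 0.112 with the 20 h CPT array left out and 0.135 with the 4 h DMSO array left out. The 8 mitochondrial genes that did not pass ran from -0.58 for FARS2, the phenylalanyl enzyme (adjusted p = 0.0578), to 0.50 for CARS2, the cysteinyl enzyme (adjusted p = 0.0865). LARS2, the leucyl enzyme, stood at -0.49 (adjusted p = 0.0574) and TARS2, the threonyl enzyme, at 0.43 (adjusted p = 0.0518). SARS2, the seryl enzyme, was nearest 0, at 0.11 (interval -0.26 to 0.49), with 4.53 and 4.49 in DMSO, 4.40, 4.41 and 4.64 in early CPT and 4.60 and 4.64 in late CPT.

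Array by array, the medians of the compartments lay farthest apart at 20 h. The median of the 19 cytosolic genes, as a log2 difference from the DMSO mean of each gene, was -0.04, 0.19 and 0.17 at 1, 2 and 4 h of CPT, -0.29 at 15 h and -0.56 at 20 h. For the 15 mitochondrial genes it was 0.12, -0.03 and 0.01 at the early times, -0.22 at 15 h and -0.15 at 20 h. For all genes it was 0.34 at 15 h and 0.30 at 20 h. The cytosolic median minus the mitochondrial median was -0.07 at 15 h and -0.41 at 20 h. At 20 h 15 of 19 cytosolic genes and 8 of 15 mitochondrial genes were below their DMSO mean, as were 5458 of all 15990 genes. The compartments were not tested against each other. Leaving out GARS1 and KARS1 could not move the cytosolic late median of -0.33, as GARS1 at -0.82 lies below it and KARS1 at 0.51 above. That check therefore says nothing about the part of these genes.

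**Figure D4:**
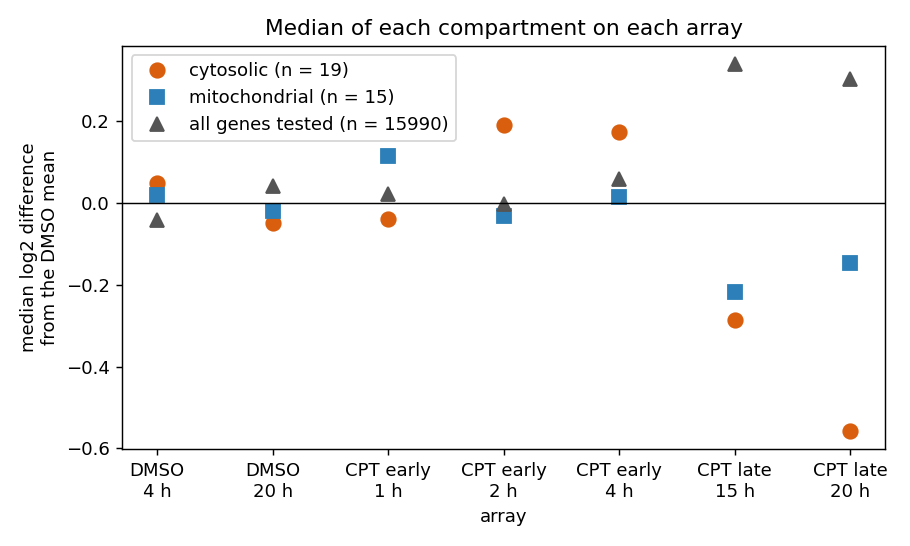
Median log2 difference from the DMSO mean on each of the 7 arrays for the 19 cytosolic genes, the 15 mitochondrial genes and all 15990 genes tested. The median of all genes lies above 0 at 15 and 20 h while both compartments lie below, the cytosolic genes lowest at 20 h, at -0.56. Under a stricter filter on dim probe sets the late mitochondrial median was above 0, at 0.13.

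Bright genes fell more often than dim ones on the whole array. Of genes in the highest tercile by mean value 34.8% fell and 19.5% rose late, against 5.2% and 40.1% in the lowest tercile. The highest tercile held 18 of the 19 cytosolic genes and 6 of the 15 mitochondrial genes. Of the 24 members in the highest tercile 12 fell and 2 rose (8.33%), with a median of -0.43 against -0.14 for all genes of that tercile. Of the 8 in the middle tercile 1 fell and 3 rose, where 14.2% and 40.7% of all genes did. Longer genes also had lower late differences, with a Spearman correlation of -0.39 between gene length and late difference over all 15990 genes and -0.39 over the 34 members, given as a description of genes on shared arrays. The part of level and length in the members' falls was not tested.

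At matched times no p-value can be given, since each side is 1 array. At 4 h no member differed more than 2-fold from its DMSO array, where 1.36% of all genes were more than 2-fold higher and 1.73% lower. At 20 h 4 members were more than 2-fold lower, RARS1 at -1.85, TARS1 at -1.50, GARS1 at -1.03 and RARS2 at -1.01, against 11.5% of all genes. At 20 h 1 was more than 2-fold higher, PARS2 at 1.20, against 6.49% of all genes. Of the 34 members 23 were below 0 at 20 h, with a median of -0.30 where that of all genes was 0.23. Between the DMSO arrays at 20 and 4 h no member differed more than 2-fold, where 1.09% of all genes were higher and 0.607% lower, and NARS2 at -0.93 and PARS2 at 0.79 differed most. Between 20 and 15 h of CPT TARS1 alone was more than 2-fold lower, at -1.03, as were 0.675% of all genes. None was more than 2-fold higher, as were 0.525% of all genes, and YARS2 at 0.80 was highest.

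Late against early CPT, a difference that uses no DMSO array but shares the late arrays with the one above, gave 9 cytosolic genes lower and none higher, with a median of -0.50. The spread behind its p-values still includes the DMSO arrays, as all 7 arrays were in 1 fit. Of the mitochondrial genes 5 were lower and 4 higher, with a median of -0.13. Over all genes 19.1% were lower and 36.2% higher (55.2% together) by limma with Benjamini-Hochberg adjustment, with a median of 0.32. Leaving out the 20 h CPT array left 2 cytosolic and 3 mitochondrial genes lower, the 15 h array 2 mitochondrial genes, and the 2 h array 5 cytosolic genes. FARSB passed here with -0.66 (adjusted p = 0.0123), with 6.52, 6.63 and 6.68 in early CPT and 5.92 and 5.97 in late CPT, whereas its DMSO arrays at 6.26 and 6.16 lay between. LARS2 at -0.66 (adjusted p = 0.0125) and TARS2 at 0.53 (adjusted p = 0.0162) also passed here and not against DMSO.

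Within the genes, 227 of 4438 kept probe sets (5.11%) moved apart from the median of their gene in late CPT, 150 upwards and 77 downwards, against 7.42% of all probe sets, 4.39% upwards and 3.03% downwards (limma, Benjamini-Hochberg over 938231 probe sets). None did so in early CPT, where the share over all probe sets was 0.0231%. The share over the synthetase genes is thus under that of the array. It was highest in YARS2, with 15 of 35 probe sets (42.9%), RARS1 with 23 of 95 (24.2%), GARS1 with 18 of 129 (14.0%), AARS1 with 17 of 142 (12.0%) and CARS1 with 16 of 171 (9.36%). In RARS1 17 of the 23 moved upwards relative to the gene. The gene value fell, and these 17 hold both probe sets that rose in value and probe sets that fell less than the gene. Their own late differences ran from -0.48 to 1.06. All 95 kept probe sets of RARS1 lay above 2.95. The 82 with a mean above 4.60, the level of the stricter filter, had a median difference of -1.59, and the other 13 had a median of 0.22. Leaving out the 4 h DMSO array turned the 227 into 49, the 20 h DMSO array into 148 and the 20 h CPT array into 87.

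The probe set with the largest relative change belonged to SARS1. It read 3.87 and 3.41 in DMSO, 3.87, 6.31 and 5.93 in early CPT, and 7.08 and 8.35 in late CPT, while the median of SARS1 fell. Relative to the gene it rose by 4.77 ± 0.67 (SE) with an adjusted p of 0.000737. In FARSA 1 probe set read 3.18 and 4.35 in DMSO, 4.14, 5.70 and 5.24 in early CPT, and 7.15 and 7.10 in late CPT, a relative rise of 3.52 (adjusted p = 0.00181) in the cytosolic gene nearest 0. One each in CARS1, GARS1 and NARS1 rose by 3.66, 3.49 and 3.35 relative to their gene. In YARS2 a probe set fell from 7.23 and 5.99 in DMSO to 2.12 and 2.56 in late CPT, with 6.93, 6.64 and 6.02 early, a relative difference of -3.35 (adjusted p = 0.000302). What these probe sets read within the transcript is not given in the sources used here.

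**Figure D5:**
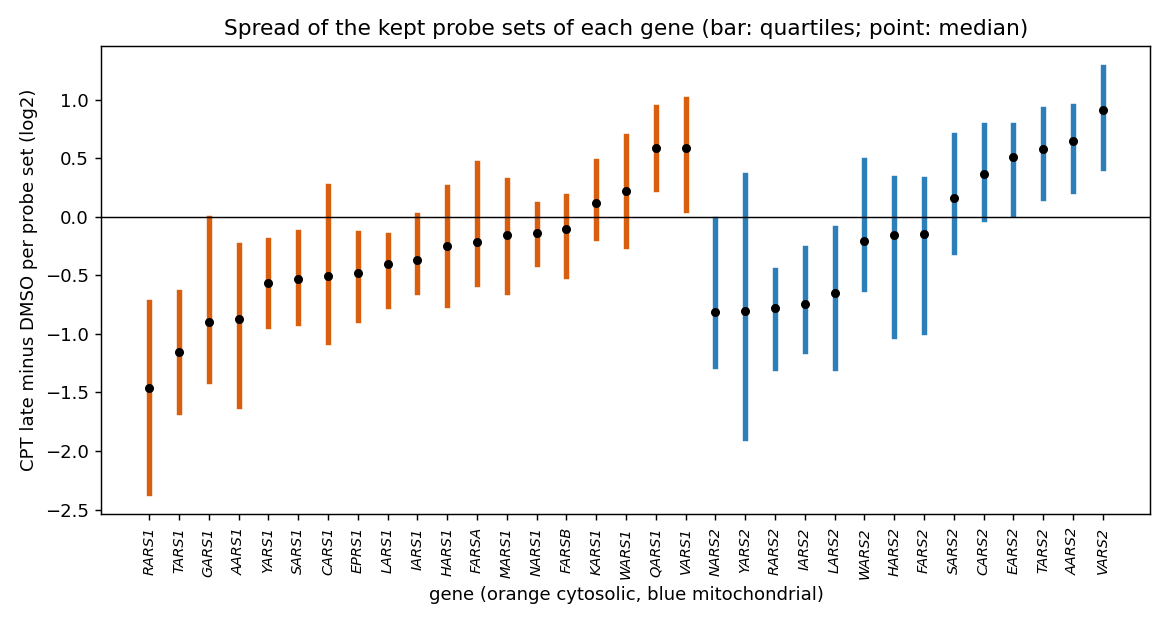
Spread of the late minus DMSO difference over the kept probe sets of each of 33 genes, log2, as quartiles (bar) and median (point), cytosolic genes in orange and mitochondrial genes in blue; PARS2 had too few. The bar lies wholly below 0 in RARS1, TARS1, RARS2, GARS1, AARS1, SARS1, EPRS1, YARS1, LARS1, NARS2, IARS2 and LARS2. It lies wholly above 0 in VARS2, QARS1, VARS1, AARS2, TARS2 and EARS2. Of these LARS2, TARS2 and EARS2 did not pass.

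The genes that passed differed in how far their probe sets went one way. Of the kept probe sets 89.3% were below 0 in RARS2, 88.4% in RARS1 and 86.7% in TARS1, against 9.18% in VARS2 and 11.5% in QARS1. In YARS2 and CARS1, which also fell, only 57.1% of 35 and 65.5% of 171 were below 0, with upper quartiles of 0.36 and 0.26. KARS1 did not pass. Its gene value stood 0.51 above DMSO while the median of the differences of its 107 probe sets was 0.12, and 44.9% of them were below 0.

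HARS1 and HARS2, the cytosolic and mitochondrial histidyl enzymes, lie head to head, and neither passed. HARS1 stood at -0.33 and HARS2 at -0.37. Their start sites in build GRCh38.p14 are 85 bases apart, and the stretch that both use, chr5:140691341-140691484 with 30 bases of each gene, is printed on the plus strand, with no letter in capitals, because a cytosolic and a mitochondrial member share it. It was chosen after the values were seen.
HARS1 and HARS2: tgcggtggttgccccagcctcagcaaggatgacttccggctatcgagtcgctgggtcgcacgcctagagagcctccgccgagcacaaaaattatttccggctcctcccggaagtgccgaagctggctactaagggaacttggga

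Genes that handle tRNA next to the synthetases moved in both directions, where 33.5% of all genes rose and 18.1% fell with a median of 0.34. Of 15 tested genes for tRNA maturation, export and proofreading 5 fell and 2 rose late, with a median of -0.27. XPOT, which exports tRNA from the nucleus, gave the lowest value, and fell by 1.95 (SE 0.25, adjusted p = 0.000318), from 7.18 and 7.03 in DMSO to 5.51 and 4.80. POP1 at -1.43 and RPP30 at -1.18, subunits of the RNase that trims tRNA ends, and THG1L at -1.12, which adds a base to histidine tRNA, fell too. Of 12 mitochondrial translation genes 4 fell and 2 rose. MTIF2, the initiation factor, fell by 2.17 (adjusted p = 0.00011), and QRSL1, a subunit of the enzyme that makes glutaminyl-tRNA in mitochondria, fell by 1.52, whereas GATC, another subunit of it, rose by 0.71. Of 6 cytosolic elongation factors 2 rose, EIF5A by 0.90 and EEF2 by 0.46, and none fell, a share of rises (33.3%) near that of all genes. No gene of these lists passed in early CPT.

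Genes of the ATF4 response moved in both directions. ATF4 itself read 7.03 and 7.21 in DMSO, 6.89, 6.92 and 6.84 in early CPT, and 7.49 and 7.75 in late CPT, a difference of 0.50 that did not pass (adjusted p = 0.0523). Of the 14 genes of the list 4 rose (28.6%) and 2 fell (14.3%), with a median of 0.38. These shares are near the 33.5% and 18.1% of all genes, and the median is near their 0.34. CHAC1, which degrades glutathione, rose by 1.56, SESN2, a stress-induced inhibitor of mTORC1 signalling, by 1.20, DDIT4, another such inhibitor, by 0.95, and SHMT2, a mitochondrial enzyme of serine metabolism, by 0.93. SLC7A11, the cystine transporter, fell by 1.28 and PSAT1, of serine synthesis, fell by 0.91. ASNS, asparagine synthetase, stood at 0.22 and did not pass. EIF2AK4 fell by 0.56 (adjusted p = 0.0343), 1 of 4 genes of uncharged tRNA sensing to pass. Of the 8 synthetase genes whose promoter held the element, TARS1, YARS2, GARS1, AARS1 and CARS1 fell, and IARS1, MARS1 and NARS1, at -0.29, -0.31 and -0.30, did not pass. All 8 are in the highest tercile by value, where 34.8% of all genes fell. RARS1, SARS1, EPRS1, RARS2, NARS2 and IARS2 fell with no match in their windows, and the other tested genes with a window but no match did not fall. Whether the element goes with a fall was not tested.

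The late arrays stood apart across the whole array. The correlation over all probe sets was 0.942 to 0.956 among the DMSO and early arrays, 0.941 between the late arrays and 0.845 to 0.908 between late and the others. Of 10 epithelial markers 3 rose and 1 fell late, where 33.5% of all genes rose and 18.1% fell. Their median level was 4.69 to 5.07 in DMSO and 5.02 to 5.12 in late CPT. All 6 endothelial markers and 5 of 6 fibroblast markers were in the lowest tercile by value, where 40.1% of all genes rose. Of the endothelial markers 5 rose, with a median level of 3.66 to 3.81 in DMSO and 4.21 to 4.24 late. Of the fibroblast markers 4 rose, and of 7 leukocyte markers 3 rose (42.9%), with late medians of 0.62 and 0.44 above DMSO. The part of these shifts in the members' results was not tested. In such bulk RNA, normalized between arrays, less RNA of a gene per cell and fewer cells that carry it cannot be told apart.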

How the data were processed

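Total RNA of 7 HCT116 samples was amplified and read on ExonHit Human Splice Array chips, per the labels' protocols. Each probe set has a deposited log2 value per array, which the authors had normalized. The submitters' processing notes name RMA, Partek 6.08 and R 2.11.1. The log base was read from the values, and the build is not given in the sources used here.

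Of 2108940 probe sets 1054571 were kept (mean over 7 arrays above 2.95, the median). Gene identifiers were matched to the RefSeq gene table of GRCh38.p14, and 17280 carried a symbol of that gene. The file symbol was current for 14 members and an older one or a synonym for 20. SARS2 stood under SARS, also an older symbol of SARS1, and was taken by identifier. A gene needed 3 kept probe sets, and a relative change 5.

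Groups were compared by limma 3.58.1 under R 4.3.3 (lmFit, eBayes with trend) with all 7 arrays in 1 fit of group means, which leaves 4 residual degrees of freedom. Benjamini-Hochberg adjusted p-values, over every gene or every probe set, were called under 0.05. The trend of the relative fit used the probe set's own level. The fits were tested on simulated data. Tables and figures used data.table (release 1.17.8), Python 3.11.15, pandas 2.3.3 and matplotlib 3.10.9. With 7 arrays, their number limits the precision.

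The members, partner lists and naming rule were chosen with earlier results of these data known. Per-array values are given for the 6 members per compartment with the largest late difference past the threshold without overlap between groups, and the member nearest 0. AIMP2 and EEF1E1 were not used here. Alternatives were the mean, no filter or a stricter one, quantile re-normalization, centring, eBayes without trend or robust, probe sets of kinds B, F and T only, and each array left out.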

Additional observations from a re-analysis of the deposited data

Results flagged for a closer look

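In 18 of the 34 synthetase genes the late CPT arrays differed from the early CPT arrays. The late arrays were those at 15 and 20 h (n = 2), the early those at 1, 2 and 4 h (n = 3). The test was limma with an adjusted p under 0.05, which 55.2% of all genes passed, a share like that of the members. No DMSO array enters this difference, so a change in the effect of CPT and the hours in culture cannot be told apart. Between the DMSO arrays at 20 and 4 h the members ran from -0.93 for NARS2 to 0.79 for PARS2, with a median of -0.06. Among the cytosolic genes the late minus early difference, on the log2 scale, was -2.08 for RARS1, -1.27 for TARS1, -0.91 for GARS1, -0.72 for AARS1, -0.66 for EPRS1, FARSB and SARS1, -0.65 for LARS1 and -0.62 for YARS1. Among the mitochondrial genes it was -0.98 for IARS2, -0.86 for NARS2 and YARS2, -0.74 for RARS2 and -0.66 for LARS2. It was 1.51 for PARS2, 0.67 for AARS2 and VARS2 and 0.53 for TARS2. CARS1, QARS1 and VARS1, which passed against DMSO, did not pass here, with -0.39 (adjusted p = 0.0878), 0.42 (adjusted p = 0.0819) and 0.36 (adjusted p = 0.0671).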

How the results depend on the processing

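The calls of RARS1, RARS2, PARS2 and VARS2 held in every setting run for them. Over all members and settings 412 results kept their direction and side of the threshold, 67 lost and 21 gained the threshold, and 7 turned sign. Those 7 were SARS1 and FARSA with no filter on dim probe sets (0.0884 and 0.0831), FARSA without the 20 h CPT array (0.000218, and down to -0.32 without the 15 h array), HARS1 from probe sets of kinds B, F and T only (0.000823) and without the 4 h DMSO array (0.015, and down to -0.68 without the 20 h DMSO array), FARS2 under the stricter filter (0.13) and SARS2 with centred arrays (-0.12). Only SARS1 had passed.

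Late against DMSO, the 9 cytosolic falls became 4 with no filter and 5 with quantile re-normalization, and the 2 rises became 1, 4 and, with centred arrays, 0. The 3 mitochondrial rises became 6 with the mean and 1 from kinds B, F and T. In the latter AARS2 missed the threshold (adjusted p = 0.0513) and PARS2 had too few probe sets to be run. The cytosolic median of -0.33 was -0.48 with no filter and -0.57 with centred arrays. The mitochondrial median of -0.20 was -0.0788 with the mean, 0.13 under the stricter filter and -0.43 with centred arrays, so its sign is not settled. Centring moved all genes to 13% higher and 21.2% lower, with a median of 0.10. Late against early, no cytosolic rise became 2 with the mean or quantile re-normalization and 1 under the stricter filter. The 227 probe sets became 103 without trend and 125 with the trend on the relative value, an alternative added after seeing the data. The cause was not tested.

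With 1 array left out, the cytosolic falls numbered 1 to 8 (2 without 4 h DMSO, 3 without 20 h DMSO, 1 without 20 h CPT) and rises 0 to 1. The mitochondrial falls numbered 1 to 5 (1 without 4 h DMSO, 2 without 15 h or 20 h CPT) and rises 2 to 4. The medians were -0.56 to -0.29 (cytosolic) and -0.30 to -0.10 (mitochondrial), and the probe sets 49 to 271. Late against early, 2 to 9 cytosolic and 2 to 6 mitochondrial genes were lower (5 cytosolic without 2 h CPT, 2 and 3 without 20 h CPT, 2 mitochondrial without 15 h). A group left with 1 array is assumed to vary like the others. No paired analysis was possible because the labels carry no replicate numbers and each CPT group shares only 1 hour with DMSO, so that hour as a block leaves no residual degrees of freedom.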
